A study of Homo sapiens with 12 samples.

Results

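The interaction of Fusicoccin A (FC-A) and interferon alpha (IFNa) was measured in OVCAR-3, a widely used cell line that was established from a human adenocarcinoma of the ovary. It is the change that FC-A made in cells also given IFNa minus the change that FC-A made without IFNa, on the log2 scale, and it uses all 12 libraries of the series. The 4 groups held 3 libraries each: Combination (FC-A with IFNa), IFNa alone, FC-A alone, and the vehicle DMSO. All cells had the wild-type genotype and were collected after 6 h, with doses not given in the sources used here. Of 28035 genes listed, 15990 were tested, those whose values averaged 10 normalized reads or more across libraries, and 12045 were left out. The labels do not say that replicates came from separate cultures, so p-values measure the spread between these libraries, which may be technical.

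FC-A is a fungal glycoside that binds in a groove shared by a 14-3-3 adapter protein and a phosphorylated partner and holds the pair together. IFNa binds the receptor IFNAR1 and IFNAR2, which activates the kinases JAK1 and TYK2. Transcription factors that include STAT2 and IRF9 then switch on interferon-stimulated genes through a DNA element called the ISRE. The title of the study poses the question of priming, that is, whether IFNa changes how cells respond to FC-A. A value of 0 means that the fold change by FC-A was equal with and without IFNa, and a positive value means that the Combination stood above the product of the separate fold changes.

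Libraries held 31.2 to 39.5 M reads in genes. The first principal component carried 77.7% of the variance and separated libraries with IFNa from those without. Along the second, with 6.51%, replicate 3 lay lowest in each of the 4 groups, so counts are also given without those 4 libraries. The labelled epithelial identity was checked with 19 markers of Mullerian epithelium, which summed to 469102 to 573691 normalized reads per library. Most of that sum came from the keratins KRT7, KRT8, KRT18 and KRT19, which are shared by many epithelia. The transcription factor PAX8 was high in every group, while other members were low, with group means of 17.3 to 39.7 for ESR1 and 101 to 134 for FOLR1. Markers of fibroblasts summed to 1951 to 2655 in Combination, 1793 to 2460 in IFNa, 1368 to 1571 in FC-A and 1260 to 1393 in DMSO, mostly COL1A1, while the fibroblast markers DCN and LUM were at or near 0. Leukocyte markers summed to at most 319 and endothelial markers to at most 400. In bulk RNA, a change in the number of cells of a type and a change in RNA per cell cannot be told apart.

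No gene passed the threshold for the interaction (limma, Benjamini-Hochberg adjusted p under 0.05, 0% of tested genes), and the smallest adjusted p was 0.593. At an unadjusted p under 0.05 there were 627 genes (3.92%), of which 399 were positive and 228 negative. edgeR on the recovered reads also called 0, with 626 at an unadjusted p under 0.05. DESeq2 called 3 genes, with 496 at an unadjusted p under 0.05. Among them were CPA4 (adjusted p = 0.0263) and KLHL29 (adjusted p = 0.0198), both positive. Leaving out replicate 3 of every group gave 1 call, NOV, at a log2 value of 0.74 and an adjusted p of 0.0407 in limma. NOV is named because that setting called it. At an unadjusted p under 0.05 that setting gave 1748 genes (10.9%), and a limma fit with a term for replicate gave 1260 (7.88%). The median standard error of the interaction was 0.131 on the log2 scale, against 0.0924 for either FC-A effect. The 95% interval of the interaction lay within 1.5-fold for 10814 genes (67.6%) and within 2-fold for 13374 (83.6%). Among 6453 genes that averaged 1000 normalized reads or more, those counts were 6248 (96.8%) and 6428 (99.6%).

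Described next are 9 genes from the 5 with the smallest interaction p in each direction, none of which passed the threshold. Among the 5 positive ones were RTP4, an interferon-stimulated antiviral factor, LAMP3, a lysosomal membrane protein that interferon induces, FAM65B, an inhibitor of the GTPase RHOA, the secreted metallocarboxypeptidase CPA4, and KLHL29, of the kelch-like family. Among the negative ones were FDFT1, the squalene synthase of cholesterol synthesis, the centriole protein CEP164, the zinc finger protein ZNF860 and the sialyltransferase ST6GAL2. Promoters of CPA4 and RTP4 are shown because these genes stand for both ways in which the FC-A effect differed in the positive genes. They span 250 bases before to 50 after the start, from RefSeq on GRCh38.p14. Those of FAM65B, LAMP3, FDFT1 and ST6GAL2 are named only. Capitals mark the AP-1 motif TGANTCA in CPA4 (plus strand of chr7:130292911-130293210) and the ISRE motif (TTTC, 2 bases of any kind, TTTC), read here on the opposite strand, in RTP4 (plus strand of chr3:187368135-187368434).
CPA4: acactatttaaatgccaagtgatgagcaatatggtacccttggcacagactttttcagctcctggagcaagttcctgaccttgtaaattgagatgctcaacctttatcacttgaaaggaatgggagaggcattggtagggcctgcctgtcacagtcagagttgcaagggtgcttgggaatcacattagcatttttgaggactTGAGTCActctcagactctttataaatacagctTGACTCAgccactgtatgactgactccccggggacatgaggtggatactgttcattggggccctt
RTP4: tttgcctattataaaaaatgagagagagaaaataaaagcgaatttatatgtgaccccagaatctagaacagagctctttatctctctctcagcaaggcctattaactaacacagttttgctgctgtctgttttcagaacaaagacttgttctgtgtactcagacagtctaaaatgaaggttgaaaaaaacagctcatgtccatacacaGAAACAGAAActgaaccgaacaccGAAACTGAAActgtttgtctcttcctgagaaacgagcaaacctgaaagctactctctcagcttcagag
The CPA4 window held 2 AP-1 matches, and 7.71% of 35116 promoters of this length held at least 1. RTP4 had 2 ISRE matches, against a share of 3.57% of all promoters with at least 1. Both strands were searched. None of the 6 motifs searched was found in KLHL29, CEP164, ZNF860 or the lipid genes INSIG1, LSS, MVD, SCD and MVK. Besides AP-1 and the ISRE, these motifs were the SREBP site TCACNCCAC and the composite ATF4 motif TGATGNAA. The remaining ones were the kB motif (GGG, 2 bases of any kind, TTTCC) and the CRE TGACGTCA. Of 10 promoters found in the RefSeq table, only those of CPA4 and RTP4 held any of the 6. A match describes the letters and is not evidence of binding.

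CPA4 fell with FC-A both with and without IFNa, and the estimated fold was smaller with IFNa. It had 3595, 3767 and 4173 normalized reads in Combination libraries and 5759, 5334 and 6274 in IFNa libraries. Without IFNa it had 1834, 1692 and 1671 in FC-A libraries and 3599, 3611 and 3783 in DMSO libraries. The groups of each pair did not overlap. The FC-A effect was -0.59 ± 0.07 (log2, SE, adjusted p = 0.00292) with IFNa and -1.08 ± 0.07 (adjusted p = 3.77e-06) without, and both calls held in all 12 fits that left out 1 library. The interaction was 0.49 (95% interval 0.29 to 0.70, adjusted p = 0.593). On the scale of reads the picture differed: FC-A removed nearly the same number, with a difference of -1944 ± 321 (SE, n = 3 each) with IFNa and -1932 ± 78.5 without. The Combination mean of 3845 lay above the 2730 that multiplying the separate folds gives, and beside the 3857 that adding the separate differences gives.

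KLHL29 had 1426, 1602 and 1511 normalized reads in Combination, against 1671, 1723 and 1674 in IFNa. In FC-A libraries it had 1044, 1123 and 1069, against 1613, 1595 and 1609 in DMSO. FC-A libraries were lowest, and neither pair overlapped. The gene fell with FC-A without IFNa, with a log2 difference of -0.57 ± 0.05 (adjusted p = 0.000295), a call that held in all 12 fits that left out 1 library. With IFNa the difference was -0.16 ± 0.05 (adjusted p = 0.235), and the interaction was 0.41 (95% interval 0.25 to 0.57). Unlike CPA4, it also differed on the scale of reads, at -176 ± 53.7 with IFNa and -527 without (SE 24). PDE4B, a phosphodiesterase that breaks down cyclic AMP, had a like pattern: its interaction was 0.56 (95% interval 0.29 to 0.84, adjusted p = 0.951). It had 337, 381 and 392 reads in Combination and 376, 412 and 399 in IFNa, which overlapped, and 161, 163 and 174 in FC-A against 249, 255 and 289 in DMSO, which did not. Its FC-A effect was -0.10 ± 0.09 with IFNa (adjusted p = 0.638) and -0.66 ± 0.09 without (adjusted p = 0.00471).

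FAM65B, RTP4 and LAMP3 were genes that IFNa raised strongly, and for them the FC-A mean lay below the DMSO mean while the Combination mean lay above the IFNa mean. RTP4 had 904, 806 and 959 normalized reads in Combination, against 744, 720 and 731 in IFNa. Without IFNa it had 14.3, 11.6 and 12.9 in FC-A, against 17.2, 23.9 and 27.7 in DMSO. Neither pair overlapped, and the libraries without IFNa held few reads of the gene. The FC-A effect was 0.28 ± 0.15 (adjusted p = 0.448) with IFNa and -0.76 ± 0.15 (adjusted p = 0.0556) without, and the interaction was 1.04 (95% interval 0.58 to 1.5). In reads the differences were 159 ± 45.1 with IFNa and -10.0 ± 3.14 without.
FAM65B had 520, 532 and 535 normalized reads in Combination and 401, 388 and 475 in IFNa. It had 13.4, 13.5 and 8.28 in FC-A and 21.8, 26.8 and 24.8 in DMSO, so its libraries without IFNa held few reads too. In reads its FC-A differences were 108 ± 27.3 with IFNa and -12.7 ± 2.26 without. The FAM65B interaction of 1.36 (95% interval 0.84 to 1.87, adjusted p = 0.593) had the smallest p of the tested genes. It fell with FC-A without IFNa, at -1.03 ± 0.17 log2 units (adjusted p = 0.0203), and leaving out DMSO replicate 1, 2 or 3 took that call away, at adjusted p up to 0.131. LAMP3 had 17593, 17323 and 19581 in Combination and 16292, 15734 and 17396 in IFNa, which overlapped, and 192, 194 and 178 in FC-A against 218, 231 and 230 in DMSO. Its interaction was 0.40 (95% interval 0.22 to 0.59).

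CEP164 had 1449, 1528 and 1586 normalized reads in Combination and 1534, 1498 and 1601 in IFNa, which overlapped, and 1425, 1405 and 1428 in FC-A against 1202, 1111 and 1168 in DMSO, which did not. It rose with FC-A without IFNa (0.29 ± 0.05, adjusted p = 0.0342), a call held in 5 of 12 fits that left out 1 library and lost with all 3 DMSO libraries, replicates 2 and 3 of FC-A, replicate 1 of IFNa and replicate 2 of Combination, at adjusted p up to 0.242. Its interaction was -0.31 (95% interval -0.47 to -0.15). ZNF860 and ST6GAL2 showed the other arrangement, with a fall in cells given IFNa and overlap in those without. ZNF860 had 296, 336 and 329 reads in Combination against 468, 437 and 409 in IFNa, and 388, 339 and 332 in FC-A against 350, 335 and 324 in DMSO, with an interaction of -0.52 (95% interval -0.78 to -0.25). ST6GAL2 had 982, 994 and 886 in Combination against 1414, 1429 and 1145 in IFNa, and 1925, 1964 and 2023 in FC-A against 1983, 2050 and 2021 in DMSO, with an interaction of -0.44 (95% interval -0.67 to -0.21). With IFNa the FC-A effects were -0.45 ± 0.09 (adjusted p = 0.0443) for ZNF860 and -0.47 ± 0.08 (adjusted p = 0.0199) for ST6GAL2. Leaving out 1 library ended the ZNF860 call in 9 of 12 fits (all 3 DMSO and Combination libraries, replicate 2 of FC-A, replicates 1 and 2 of IFNa), at adjusted p up to 0.290, and the ST6GAL2 call in 5 (replicates 1 and 2 of IFNa, all 3 Combination libraries), at adjusted p up to 0.193.

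**Figure D1:**
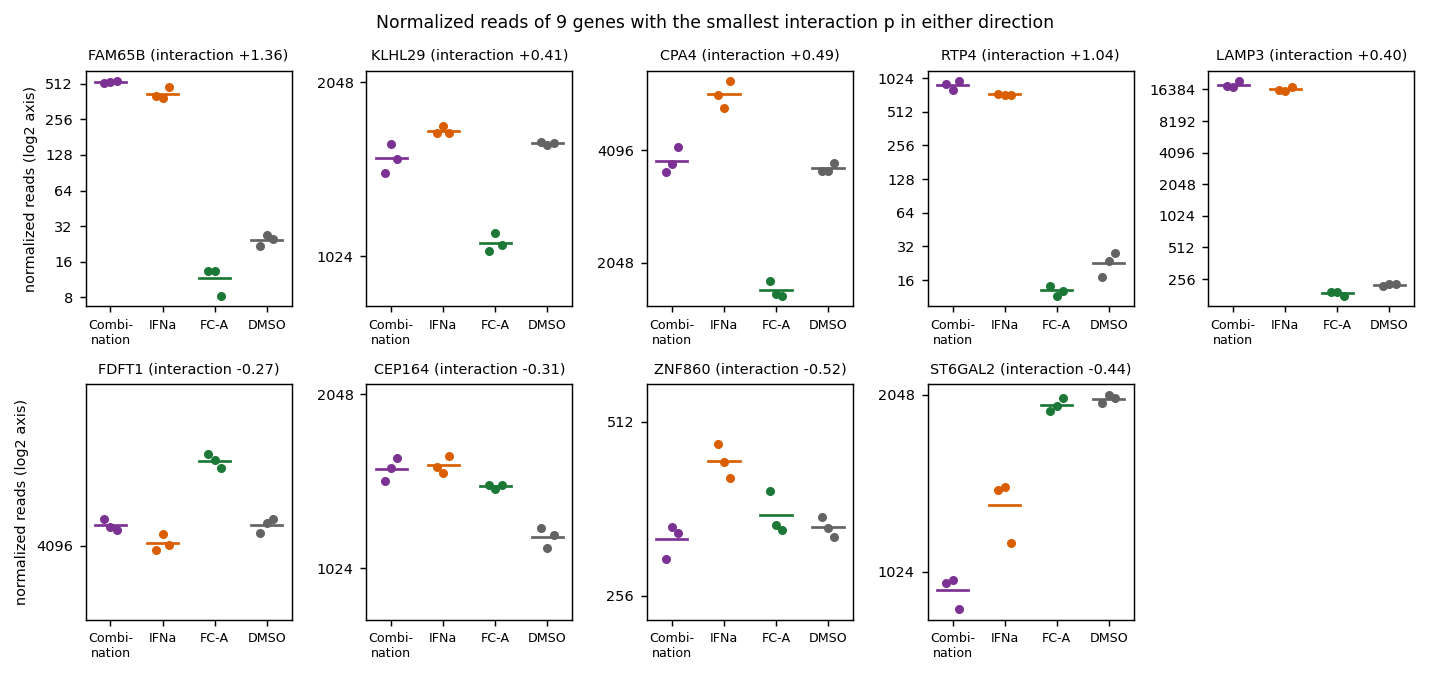
Normalized reads on log2 axes of 9 genes with the smallest interaction p in either direction, with 1 point per library and a line at the group mean, for Combination, IFNa, FC-A and DMSO. As folds, CPA4 and KLHL29 were lower in FC-A than in DMSO by more than the Combination was below IFNa. In reads the CPA4 differences were nearly the same. CEP164 was higher in FC-A than in DMSO while Combination and IFNa overlapped.

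The SREBP transcription factors raise genes of sterol synthesis and uptake when membrane cholesterol is low. FDFT1 had 4553, 4410 and 4373 normalized reads in Combination, against 4034, 4290 and 4107 in IFNa. In FC-A it had 5912, 5776 and 5582, against 4306, 4490 and 4554 in DMSO. FC-A libraries were the highest, and neither pair overlapped. The gene rose with FC-A without IFNa (0.37 ± 0.04, adjusted p = 0.00231, held in all 12 fits that left out 1 library). With IFNa the FC-A effect was 0.10 ± 0.04 (adjusted p = 0.350), and the interaction was -0.27 (95% interval -0.40 to -0.14). In reads FC-A added 302 ± 93.8 with IFNa and 1306 ± 121 without.

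Genes of cholesterol synthesis and sterol control rose with FC-A in cells without IFNa, and none was called with IFNa. Of 30 tested, 0 passed the test with IFNa, where 0.331% of all genes were called, and 7 rose without IFNa, where 0.3% were called (0.156% higher). Among the 7 were INSIG1, which holds the SREBP precursors back in the endoplasmic reticulum, the mevalonate enzymes MVK and MVD, FDFT1, the lanosterol synthase LSS, and DHCR7, which makes cholesterol from its last precursor. They were chosen after their values were seen. The median FC-A effect over the list was 0.07 with IFNa and 0.18 without, against 0.00 for all tested genes in both settings. The interaction was negative for 23 of 30 and its median was -0.11, against 0.01 for all genes, of which 52.2% were positive. At an unadjusted p under 0.05 there were 11 negative genes (1.43% of all genes) and 1 positive (2.5% of all genes), which was the ubiquitin ligase MYLIP. The interaction is built from the same FC-A and DMSO libraries as the effect without IFNa, so its sign in genes called there is no separate evidence. With replicate 3 of every group left out, 4 genes of the list rose with IFNa and 11 without, beside 619 (3.87%) and 60 (0.375%) of all genes, the median effects were 0.06 and 0.20, and 22 of 30 interactions were negative.

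INSIG1 had 985, 1035 and 1052 normalized reads in Combination, against 860, 871 and 912 in IFNa, and 1115, 1263 and 1209 in FC-A, against 801, 857 and 907 in DMSO. Neither pair overlapped. Its FC-A effect was 0.22 ± 0.06 with IFNa (adjusted p = 0.195) and 0.48 ± 0.06 without (adjusted p = 0.00431), with an interaction of -0.27 (95% interval -0.46 to -0.07). MVD had effects of 0.22 and 0.44 in the same order, LSS 0.07 and 0.34, MVK 0.09 and 0.39, and DHCR7 0.07 and 0.29. INSIG1, MVD and FDFT1 kept their calls without IFNa in all 12 fits that left out 1 library. LSS lost its call in 3 fits (replicates 1 and 3 of DMSO, replicate 2 of FC-A), at adjusted p up to 0.0571. MVK lost it in each of 6 fits (all 3 DMSO libraries, replicates 1 and 2 of FC-A, replicate 1 of IFNa), at adjusted p up to 0.175. DHCR7 lost it in 5 (all 3 DMSO libraries, replicate 2 of FC-A, replicate 1 of IFNa), at adjusted p up to 0.161. HMGCS1, which makes the precursor of mevalonate, had effects of 0.25 ± 0.07 with IFNa (adjusted p = 0.181) and 0.31 ± 0.07 without (adjusted p = 0.0904), and an interaction of -0.06 (95% interval -0.28 to 0.15).

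**Figure D2:**
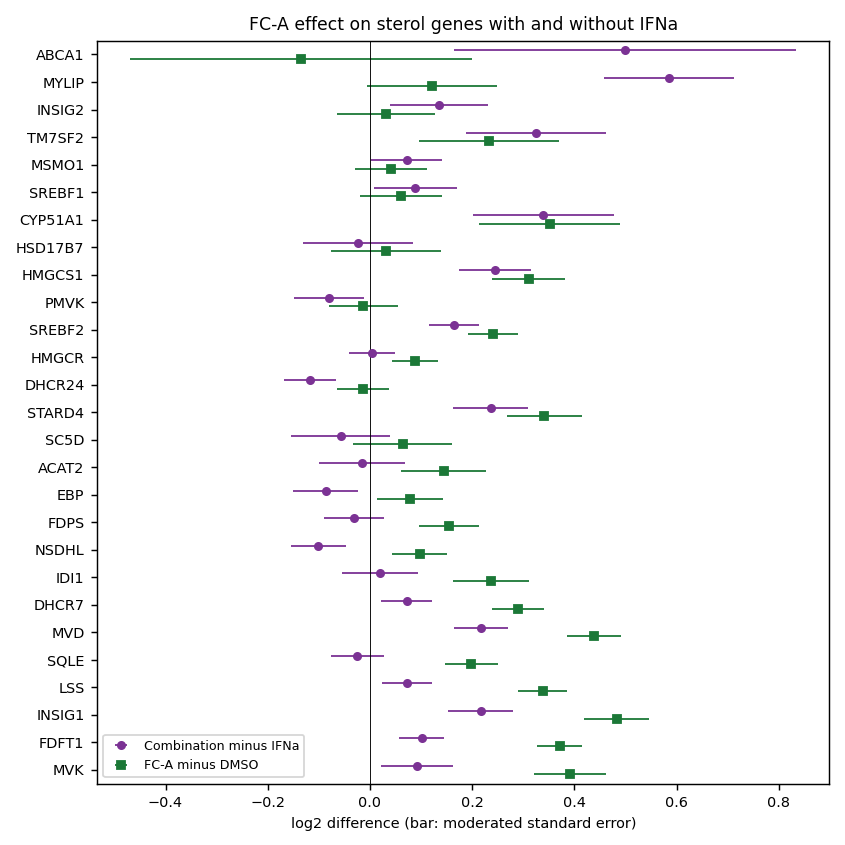
FC-A effect with IFNa (Combination minus IFNa, circles) and without IFNa (FC-A minus DMSO, squares) for 27 sterol genes that averaged 50 normalized reads or more, as log2 differences with moderated standard errors. FDFT1 lies at 0.10 with IFNa and 0.37 without, and HMGCS1 at 0.25 and 0.31.

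Fatty acid synthesis genes, which the SREBP factors also control, had a median FC-A effect of 0.08 with IFNa and a median interaction of -0.13 over 14 genes, of which 10 were negative. None was called with IFNa, where 0.331% of all genes were called, and 2 rose without, where 0.156% rose. These were SCD, which desaturates stearate, and FADS2, a desaturase of polyunsaturated fatty acids. With replicate 3 of every group left out, 3 of the 14 rose with IFNa and 2 without, beside 619 (3.87%) and 60 (0.375%) of all genes. SCD had 13570, 13513 and 15966 normalized reads in Combination, against 11425, 12154 and 11365 in IFNa, and 16281, 16363 and 18874 in FC-A, against 11524, 10893 and 11897 in DMSO. Combination lay above IFNa and FC-A above DMSO with no overlap. The effects were 0.30 ± 0.07 (adjusted p = 0.116) with IFNa and 0.58 ± 0.07 (adjusted p = 0.00236) without, and the value without IFNa held its call in all 12 fits that left out 1 library. FADS2 had effects of 0.10 and 0.28 (adjusted p = 0.0437 without IFNa), and its call held in 3 of 12 such fits, being lost with all 3 DMSO libraries, replicates 2 and 3 of FC-A and replicates 1 and 2 of IFNa and of Combination, at adjusted p up to 0.254. Of 23 sterol genes matched in the promoter table, 1 (4.35%) held the SREBP motif, and of 12 fatty acid genes 0 did, against 1.13% of all promoters.

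Over all tested genes, the lipid genes included, FC-A changed a small and partly shared set with and without IFNa. It changed 53 genes with IFNa (22 higher, 31 lower) and 48 without (25 higher, 23 lower). The effects share no library with each other. They had 16 calls in common, 30.2% of those with IFNa and 33.3% of those without, all of the same sign. Up in both were DDIT4, an inhibitor of the growth kinase mTORC1, CDKN1A, the p21 cell cycle inhibitor, the transcriptional repressor CIC and SAMD4B. Down in both were CPA4, the carbonic anhydrase CA2, the scaffold IQGAP2, the kinase RIPK4, the chloride channel protein CLIC5, RGCC, the protocadherin PCDH19, the synaptic calcium sensor SYT1, GPRC5A, SCEL, KLHL13 and CRIM1. Across all 15990 genes the FC-A effects correlated at r = 0.263 (Pearson, across genes, which are not independent). That value depended on the setting, at 0.0652 with no filter on low reads, 0.474 at a mean of at least 50, and 0.0792 to 0.361 with 1 library left out. When replicate 3 of every group was left out, 1187 genes were called with IFNa and 134 without. Single libraries moved the counts widely. With IFNa, the count was 4, 7 and 510 with IFNa replicate 1, 2 or 3 left out, 92 and 89 with FC-A replicate 1 or 3 left out, and 14 to 27 with FC-A replicate 2 or any DMSO or Combination library left out. Without IFNa, it was 16 to 19 with any DMSO library or FC-A replicate 2 left out, 26 and 85 with IFNa replicate 1 or 3 left out, and 119 with FC-A replicate 1 left out.

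Genes that passed in 1 setting mostly kept their direction in the other. Of 22 genes raised with IFNa, 21 were positive without it, with median effects of 0.42 with IFNa and 0.23 without. Of 31 lowered with IFNa, 30 were negative without, with medians of -0.47 and -0.36. For the 25 raised without IFNa, 23 were positive with it, with medians of 0.22 with IFNa and 0.37 without, and for the 23 lowered, 22 were negative, with medians of -0.33 and -0.51. Effects were smaller where the genes had not been chosen, in both directions of choice, so the sizes are descriptions of the chosen genes.

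DDIT4 had 4868, 4955 and 5746 normalized reads in Combination, against 2648, 2501 and 3225 in IFNa, and 5251, 5674 and 6208 in FC-A, against 3717, 3494 and 3753 in DMSO. Neither pair overlapped. It rose by 0.90 ± 0.09 (adjusted p = 0.00188) with IFNa, a call held in all 12 fits that left out 1 library. Without IFNa it rose by 0.64 ± 0.09 (adjusted p = 0.00659), a call lost without DMSO replicate 2 at an adjusted p of 0.0592. Its interaction was 0.26 (95% interval -0.02 to 0.53). CLIC5 had 211, 258 and 198 reads in Combination, against 458, 429 and 364 in IFNa, and 318, 306 and 336 in FC-A, against 563, 566 and 506 in DMSO. No pair overlapped. It fell in both settings, with log2 differences of -0.91 ± 0.11 (adjusted p = 0.00358) with IFNa and -0.77 ± 0.11 (adjusted p = 0.00659) without, with an interaction of -0.14 (95% interval -0.47 to 0.19). The call without IFNa did not hold with replicate 1 or 2 of DMSO or replicate 2 of FC-A left out, at adjusted p up to 0.0592. FLG, the skin barrier protein filaggrin, had 2151, 2245 and 2254 reads in Combination, against 3582, 3987 and 3477 in IFNa, and 2182, 2339 and 2730 in FC-A, against 3048, 3079 and 3609 in DMSO. Neither pair overlapped. It fell with FC-A and IFNa (-0.73 ± 0.08, adjusted p = 0.00292), and its effect without IFNa was -0.43 ± 0.08 (adjusted p = 0.0519). Of the calls, 4 of 53 with IFNa (FLG, CLIC5, CPA4 and DDIT4) and 13 of 48 without held in all 12 such fits.

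**Figure D3:**
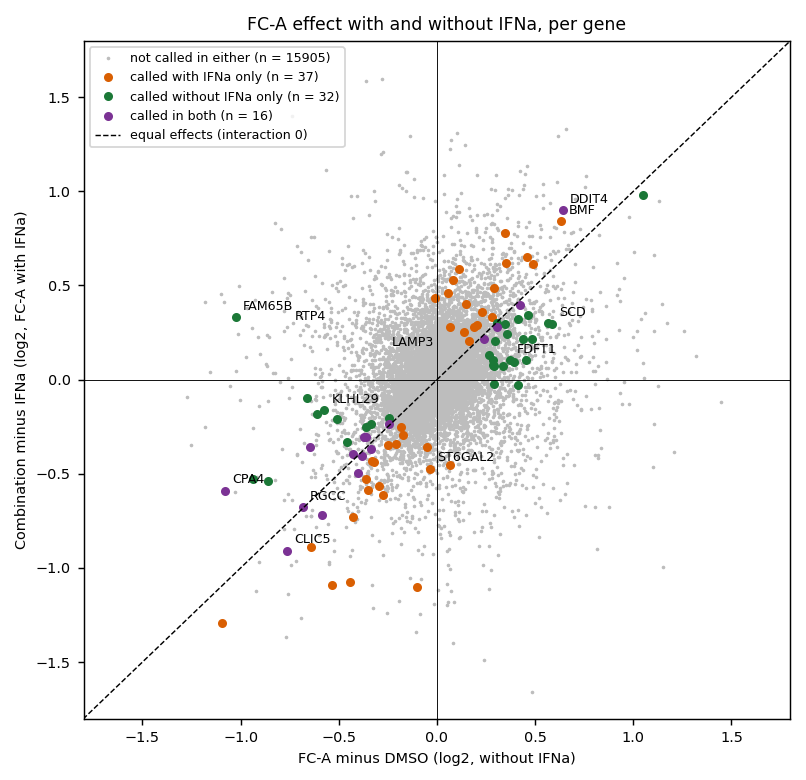
FC-A effect with IFNa (vertical, Combination minus IFNa) against that without (horizontal, FC-A minus DMSO) per gene in log2 units, with called genes in colour and a dashed line where the interaction is 0. Of 15990 genes, 2 lie outside the axes. CPA4 and DDIT4 are called in both settings, and FDFT1 and SCD without IFNa.

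Interferon-stimulated genes were strongly induced by IFNa both with and without FC-A. IFNa changed 7818 genes with FC-A present (48.9%) and 7507 without (46.9%), with 6302 called in both and all of these of the same sign. Those 6302 were 80.6% of the calls with FC-A and 83.9% of those without. The IFNa effects, which share no library, had r = 0.949 across genes and a slope of 0.985 for the effect with FC-A on that without. All 67 tested antiviral genes rose with IFNa, with a median log2 effect of 4.67 with FC-A and 4.47 without. OAS2, which senses double-stranded RNA, had 31628, 31845 and 32730 normalized reads in Combination and 31582, 31351 and 31691 in IFNa, and 13.4, 23.2 and 34.0 in FC-A and 25.4, 16.3 and 33.4 in DMSO. Both pairs overlapped, and its interaction was 0.15 (95% interval -0.64 to 0.93). The interaction was positive for 56 of the 67 genes, with a median of 0.09, and 12 were positive at an unadjusted p under 0.05 (2.5% of all genes). XAF1, which averaged under 10 reads in both FC-A and DMSO, was among the 11 negative. The 95% interval lay within 1.5-fold for 54 of them. Of the 49 antiviral genes with a promoter in the RefSeq table, 31 (63.3%) held the ISRE motif.

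Among the antiviral genes, IFIT3, which binds viral RNA with its relatives, had 83522, 86413 and 91522 normalized reads in Combination and 76681, 76360 and 78216 in IFNa. It had 427, 438 and 409 in FC-A and 498, 421 and 462 in DMSO. Combination lay above IFNa with no overlap, while FC-A overlapped DMSO. The interaction was 0.29 (95% interval 0.11 to 0.47, adjusted p = 1). IFITM2, which blocks entry of viruses, had an interaction of 0.38 and RTP4 one of 1.04, and these 3 were chosen after their values were seen, as those with the smallest p in the list. PML, the scaffold of nuclear bodies, was the member called for FC-A with IFNa (0.21 ± 0.04, adjusted p = 0.0434), and it lost that call in 9 of the 12 fits that left out 1 library, with adjusted p up to 0.271. Those fits left out the DMSO and Combination libraries in turn, replicate 2 of FC-A, and replicates 1 and 2 of IFNa. None of the 67 was called for FC-A without IFNa, beside 0.3% of all genes, and the call of PML with IFNa stands beside 0.331%. With replicate 3 of every group left out, 11 rose with FC-A and IFNa and 0 without IFNa, while 619 of 15990 genes (3.87%) rose with IFNa and 60 (0.375%) without.

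For the receptor and signalling genes the interactions lay near 0. IFNAR1 and IFNAR2 had interactions of 0.03 (95% interval -0.14 to 0.20) and 0.14 (-0.06 to 0.34). STAT2 had an interaction of 0.12 (-0.19 to 0.44), IRF9 one of -0.09 (-0.67 to 0.50), and USP18, which shuts down receptor signalling, one of 0.03 (-0.21 to 0.28). Over 21 genes of the list the median was 0.03 and 14 were positive. In MHC class I presentation, B2M, the light chain of the class I molecule, had 43112, 42760 and 47693 reads in Combination and 39232, 39096 and 40755 in IFNa, and 9695, 9247 and 9029 in FC-A and 9877, 9975 and 9947 in DMSO. Neither pair overlapped, with an interaction of 0.26 (95% interval 0.10 to 0.41) that did not pass the threshold. B2M was chosen after its values were seen. Over the 22 tested genes of that list the median interaction was 0.10, and 1 had an unadjusted p under 0.05. None of the 22 was called for FC-A with IFNa or without, beside 0.331% and 0.3% of all genes.

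Of 15 tested chemokines and immune ligands, 1 was called for FC-A with IFNa and 0 without, beside 0.331% and 0.3% of all genes. Levels without IFNa were often a few reads, and 4 members (CCL20, CCL5, CXCL11 and TNFSF13B) averaged under 10 in both FC-A and DMSO and passed the filter through the libraries given IFNa. CXCL10, which attracts T cells, had 15775, 15664 and 16624 normalized reads in Combination and 15163, 15748 and 13857 in IFNa, and 14.3, 10.6 and 7.36 in FC-A and 14.5, 11.5 and 14.3 in DMSO. Both pairs overlapped, and its interaction was 0.44 (95% interval -0.05 to 0.92). CX3CL1, a membrane-bound chemokine, was the member called (0.46 ± 0.09, adjusted p = 0.0434). It had 4212, 4983 and 4415 reads in Combination and 3050, 3210 and 3626 in IFNa, without overlap, and 144, 170 and 152 in FC-A and 146, 161 and 141 in DMSO, with overlap. Its call was lost in the same 9 of 12 fits as that of PML, at adjusted p up to 0.290. When replicate 3 of every group was left out, 3 members rose with FC-A and IFNa, where 619 of 15990 genes (3.87%) rose.

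**Figure D4:**
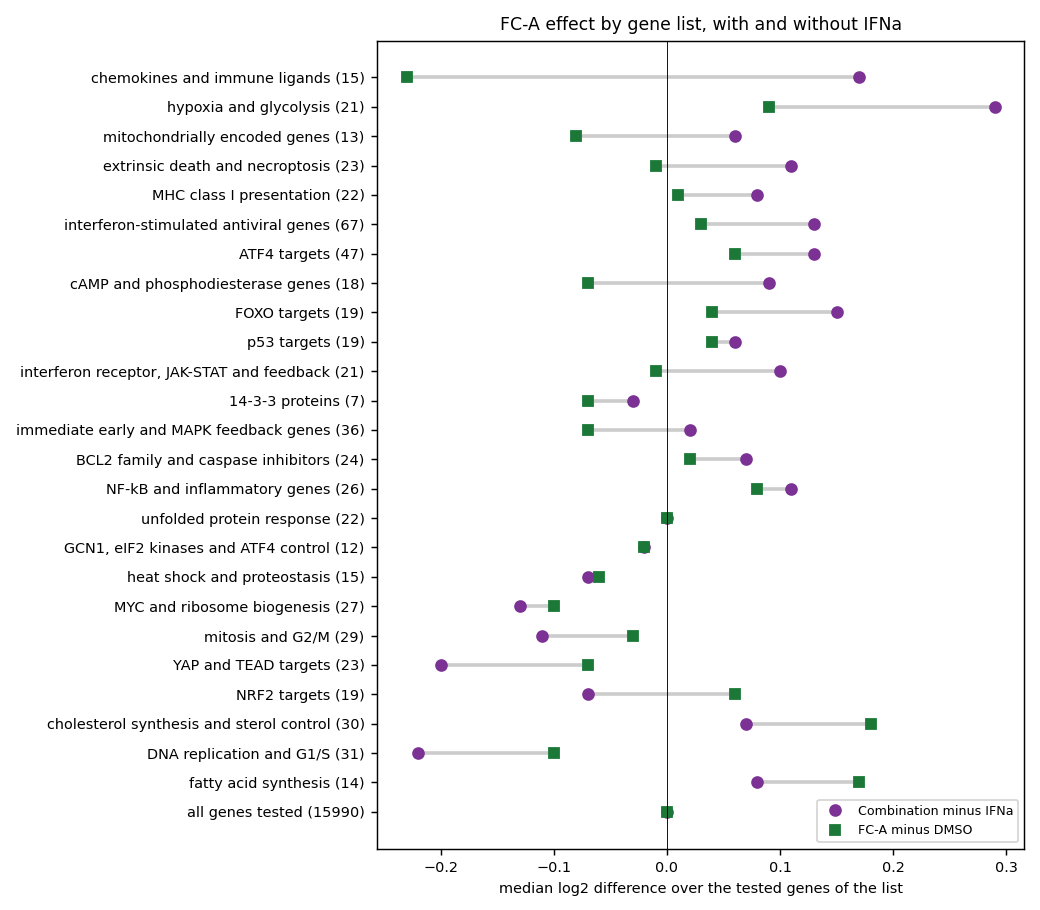
Median log2 FC-A effect over each gene list with IFNa (circles, Combination minus IFNa) and without IFNa (squares, FC-A minus DMSO), ordered by median interaction with all tested genes at the bottom and the number of genes tested in brackets. Hypoxia and glycolysis genes lie at 0.29 with IFNa and 0.09 without, and sterol genes at 0.07 and 0.18. Of the 15 chemokines, 4 averaged under 10 reads in both groups without IFNa.

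Cell death genes were examined because the title of the study names cell death. TNFSF10, the death ligand TRAIL, had 23325, 24386 and 25958 normalized reads in Combination and 19923, 18510 and 20516 in IFNa, without overlap. It had 561, 558 and 690 in FC-A and 521, 482 and 573 in DMSO, which overlapped. The FC-A effect was 0.32 ± 0.08 (adjusted p = 0.139) with IFNa and 0.20 ± 0.08 (adjusted p = 0.532) without, and the interaction was 0.13 (95% interval -0.13 to 0.38). ZBP1, a nucleic acid sensor that can start necroptosis, had 439, 484 and 471 reads in Combination and 379, 365 and 451 in IFNa, and 2.67, 3.86 and 8.28 in FC-A and 7.26, 6.70 and 7.63 in DMSO. Both pairs overlapped. Its interaction was 0.80 (95% interval 0.02 to 1.58, adjusted p = 1). All 6 libraries without IFNa held fewer than 10 reads of ZBP1, which passed the filter (a mean of at least 10 over all libraries) through those given IFNa, so this value rests on counts below that level. RIPK2, a kinase of NOD receptor signalling, and CASP8, the caspase of death receptors, had interactions of 0.19 (-0.17 to 0.55) and 0.01 (-0.16 to 0.19). Of 23 tested genes of extrinsic death and necroptosis, none was called for FC-A with IFNa or without, beside 0.331% and 0.3% of all genes. Their median interaction was 0.14, with 20 positive, and 2 (NOD2 and ZBP1) averaged under 10 reads in both FC-A and DMSO. With replicate 3 of every group left out, 3 rose with IFNa and 0 without, beside 619 (3.87%) and 60 (0.375%) of all genes.

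BMF, a BCL2 family member that promotes apoptosis, rose with FC-A in cells given IFNa (0.84 ± 0.13, adjusted p = 0.0151). It had 728, 619 and 971 normalized reads in Combination, against 427, 393 and 452 in IFNa, and 3864, 4300 and 4936 in FC-A, against 2911, 2578 and 2928 in DMSO. Neither pair overlapped. IFNa lowered BMF with FC-A (-2.51) and without (-2.72), and each Combination library lay below each DMSO library. The effect without IFNa was 0.63 ± 0.13 (adjusted p = 0.0624), and the interaction was 0.21 (95% interval -0.19 to 0.61). The call did not hold with replicate 1 or 2 of IFNa or replicate 1 of Combination left out, at adjusted p up to 0.105. BBC3, which encodes the apoptosis promoter PUMA, had 282, 276 and 247 reads in Combination against 148, 153 and 213 in IFNa, and 130, 158 and 152 in FC-A against 138, 159 and 156 in DMSO. Combination lay above IFNa with no overlap, and FC-A overlapped DMSO. Its interaction of 0.70 (95% interval 0.29 to 1.12, adjusted p = 1) had the smallest p of the 24 BCL2 family genes, and it was chosen for that. The list's median was 0.02.

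ATF4 drives transcription in the integrated stress response, which GCN1 and the kinase GCN2 (EIF2AK4) switch on when amino acids are short. ATF4 itself had an interaction of 0.07 (95% interval -0.08 to 0.21), GCN1 (listed as GCN1L1) one of -0.10 (-0.27 to 0.06) and EIF2AK4 one of -0.13 (-0.34 to 0.08). Over 47 ATF4 targets the median FC-A effect was 0.13 with IFNa and 0.06 without. With IFNa 2 rose (DDIT4 and CHAC1), beside 0.138% of all genes, and 1 rose without (DDIT4), beside 0.156%. The median interaction was 0.07 with 34 positive, against 0.01 for all genes, of which 52.2% were positive. CHAC1, which degrades glutathione, had 650, 745 and 712 normalized reads in Combination and 404, 467 and 511 in IFNa, and 253, 235 and 197 in FC-A and 156, 166 and 161 in DMSO. Neither pair overlapped. Its effects were 0.61 ± 0.11 (adjusted p = 0.0310) with IFNa and 0.49 ± 0.11 (adjusted p = 0.0766) without, with an interaction of 0.12 (95% interval -0.21 to 0.45). The call was lost in the same 9 of 12 fits as that of PML, at adjusted p up to 0.216. NUPR1, a stress-induced chromatin protein, had 2325, 2333 and 3187 reads in Combination and 1090, 1020 and 1897 in IFNa, and 212, 279 and 290 in FC-A and 194, 218 and 229 in DMSO. Combination lay above IFNa without overlap, and FC-A overlapped DMSO. Its interaction was 0.74 (95% interval 0.13 to 1.34, adjusted p = 1), and its FC-A effect with IFNa was 1.01 ± 0.20 (adjusted p = 0.0507). With replicate 3 of every group left out, 15 ATF4 targets rose with IFNa and 3 without, beside 619 (3.87%) and 60 (0.375%) of all 15990 genes.

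The genes of the 14-3-3 proteins, the binding partners of FC-A, had interactions near 0. Values ran from -0.03 (YWHAH) to 0.10 (YWHAZ), and each 95% interval held 0. None of the 7 was called for FC-A with IFNa or without, beside 0.331% and 0.3% of all genes. YWHAZ, the member with the most reads, had 41662, 41696 and 42580 normalized reads in Combination and 41063, 41221 and 38803 in IFNa, and 36787, 33727 and 33986 in FC-A and 35652, 36587 and 35654 in DMSO. Combination and IFNa did not overlap, while FC-A and DMSO did. The interval of YWHAH was the widest of the 7 (-0.32 to 0.27). The signs of YWHAB, YWHAG and YWHAQ turned negative without replicate 3 of every group.

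**Figure D5:**
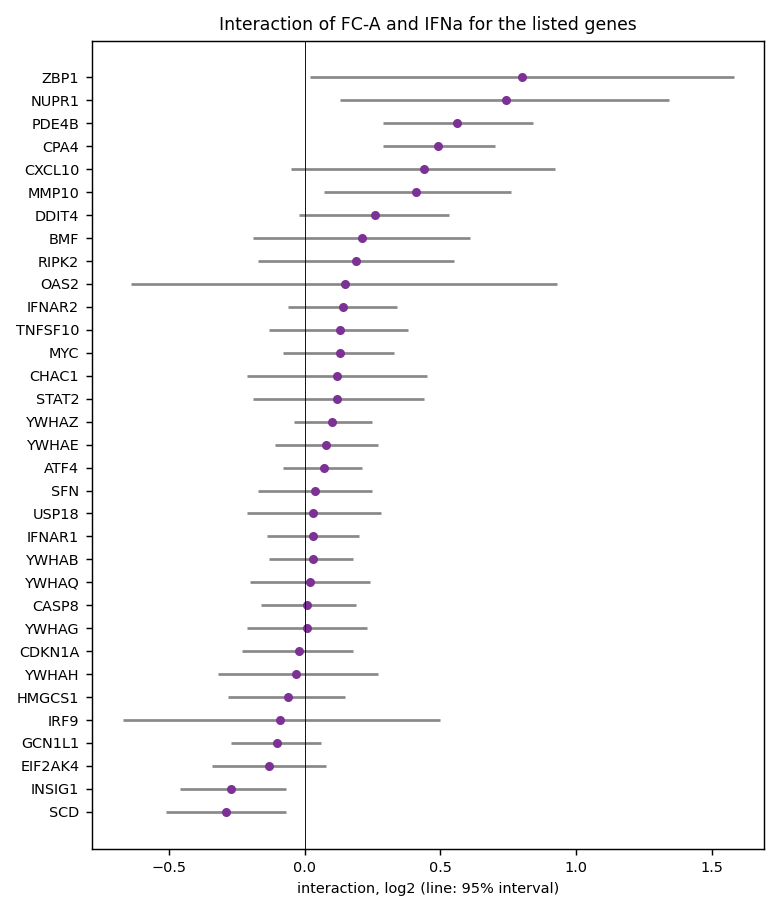
Interaction of FC-A and IFNa (point, log2) with its 95% interval (line) for 33 genes of interferon signalling, cell death, stress, lipid and 14-3-3 biology. Intervals are per gene and not adjusted for the number of genes tested, and no gene passed the adjusted threshold. Those of 7 genes leave out 0: SCD and INSIG1 on the negative side, and MMP10, CPA4, PDE4B, NUPR1 and ZBP1 on the positive side. ZBP1 had under 10 reads in each library without IFNa.

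Genes of DNA replication and the G1/S transition had a negative interaction in 30 of 31 cases, with a median of -0.13, and none reached an unadjusted p under 0.05. Their level per library, as the median log2 distance from the DMSO mean, was -0.13, -0.15 and -0.54 in Combination and 0.05, 0.10 and -0.24 in IFNa. It was 0.09, -0.05 and -0.31 in FC-A and 0.02, 0.04 and -0.07 in DMSO. Replicate 3 was the lowest library of each group. When replicate 3 of every group was left out, 16 of the 31 fell with FC-A and IFNa and 0 without IFNa, with medians of -0.20 and -0.03. Over all 15990 genes, 568 (3.55%) fell with IFNa and 74 (0.463%) without in that setting. Mitosis genes had a median interaction of -0.07, with 24 of 29 negative. CDKN1A, called for FC-A in both settings, had 4567, 4550 and 4027 normalized reads in Combination and 3245, 3146 and 3581 in IFNa, and 1108, 1187 and 1252 in FC-A and 903, 838 and 903 in DMSO. Neither pair overlapped, and its interaction was -0.02 (95% interval -0.23 to 0.18). Leaving out 1 library ended the CDKN1A call with IFNa in 6 of 12 fits (replicate 1 of DMSO, replicate 2 of FC-A, replicates 1 and 2 of IFNa and of Combination), at adjusted p up to 0.216. The call without IFNa ended in 5 (all 3 DMSO libraries, replicates 2 and 3 of FC-A), at adjusted p up to 0.131.
MYC, the growth factor-driven transcription factor, had 2376, 2556 and 2115 reads in Combination and 2907, 2936 and 3011 in IFNa, and 687, 652 and 599 in FC-A and 898, 890 and 876 in DMSO, again with no overlap. It fell with FC-A without IFNa with a log2 difference of -0.46 ± 0.07 (adjusted p = 0.00877), a call that ended with replicate 1 or 2 of DMSO or replicate 2 of FC-A left out, at adjusted p up to 0.0649. Its effect with IFNa was -0.33 ± 0.07 (adjusted p = 0.0591), and the interaction was 0.13 (95% interval -0.08 to 0.33). MMP10, a secreted matrix protease, had 207, 179 and 222 reads in Combination and 318, 264 and 294 in IFNa, and 173, 187 and 170 in FC-A and 379, 345 and 298 in DMSO. Neither pair overlapped. The log2 FC-A effect was -0.53 ± 0.11 with IFNa (adjusted p = 0.0747) and -0.94 ± 0.11 without (adjusted p = 0.00231). The gene fell without IFNa in all 12 fits that left out 1 library, and its interaction was 0.41 (95% interval 0.07 to 0.76, adjusted p = 1).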

How the data were processed

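Messenger RNA of 12 libraries was measured, from stranded, poly(A)-selected preparations per the labels. The authors deposited signal values, which are normalized counts per gene and library. Tools named in the submitters' processing notes are STAR 2.7.3, bcl2fastq 2.20, DESeq2 1.24.0 and FastQC, with build hg19, and the counting program is absent from the labels read. The authors also deposited tables of log2 fold changes with standard errors, a score (the fold change over its error) and p-values, per the file headers, for FC-A against DMSO and IFNa against Combination. They entered as an alternative. Each library's values were whole multiples of 1 step (100% of values within 0.01), which gave recovered reads.

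The analysis used log2(value + 1), a scale that understates folds where reads are few. A single limma fit (version 3.58.1, R 4.3.3) gave the 4 group means with a variance trend. Tests were two-sided at 0.05 after Benjamini-Hochberg adjustment over 15990 genes. SE is the moderated standard error, and for differences in reads it comes from the group variances. Alternative settings changed the pseudocount (0.5 or 8), the filter (none, or a mean of 50), the scaling (TMM or quantile) and the trend (none). Others were edgeR 4.0.16 (quasi-likelihood) or DESeq2 1.42.0 on recovered reads, the deposited tables, a replicate block, replicate 3 left out of every group, and each library left out in turn. The procedure was tested on simulated data with planted interactions of 2-fold or more in either direction and no likeness between libraries of the same replicate number. That test cannot show how smaller interactions, or the likeness of the replicate 3 libraries, are handled.

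Genes named by rule are the 5 with the smallest interaction p in each direction, since none passed, and 35 listed genes. Others were chosen after their values were seen. The question, the members and the 29 gene lists (4 of markers, with 9 genes in more than 1 list) were chosen with earlier results of these data known. Of 17 promoters looked up, 10 were matched. Some genes are not reported here.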

Additional observations from a re-analysis of the deposited data

How the results depend on the processing

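With DESeq2 or with the authors' deposited tables, 2 genes were called higher and 1 lower for the interaction. The replicate block called 1 lower, and leaving out replicate 3 of every group 1 higher (NOV). Every fit that left out 1 library called 0 higher and 0 lower. For FC-A with IFNa the count was 11 without a variance trend, 235 with DESeq2, 231 in the authors' deposited tables, 1009 with the replicate block and 1187 without replicate 3 of every group, and ran from 4 to 510 when 1 library was left out. For FC-A without IFNa the counts were 20, 158, 155, 289 and 134 in the same settings, and 16 to 119 when 1 library was left out. The correlation of the FC-A effects across genes was 0.343 at a pseudocount of 8, 0.0652 with no filter, 0.474 at a mean of at least 50 and 0.134 without replicate 3 of every group, and 0.0792 to 0.361 with 1 library left out. Libraries of the same replicate number were alike for replicate 3 and less so for the others. With group means taken out, 6 of 6 same-number correlations passed 0.1 for replicate 3 (0.188 to 0.395). For replicate 1, 2 of 6 did (0.0176 to 0.188), and for replicate 2, 2 of 6 (0.0203 to 0.113). The main fit held no term for replicate.

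Signs near 0 turned for YWHAQ (-0.01 with quantile scaling, -0.03 without replicate 3 of every group), CASP8 (0.00 with edgeR, -0.05), YWHAG (0.00 with edgeR, -0.05), CDKN1A (0.11), IRF9 (0.13), YWHAB (-0.05) and USP18 (-0.08), the last value of each being without replicate 3. With 1 library left out, values ran from -0.04 to 0.09 for YWHAQ, -0.04 to 0.06 for CASP8, -0.07 to 0.04 for CDKN1A, -0.06 to 0.10 for YWHAG, -0.01 to 0.25 for STAT2, -0.19 to 0.45 for OAS2, -0.33 to 0.14 for IRF9, -0.02 to 0.06 for YWHAB and IFNAR1, -0.04 to 0.10 for USP18, -0.12 to 0.08 for YWHAH and -0.01 to 0.11 for SFN. The cause was not tested. The 95% interval of the interaction lay within 1.5-fold for 67.6% of the tested genes, and for 96.8% of those that averaged 1000 normalized reads or more.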

Other observations

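Hypoxia and glycolysis genes had the largest positive median of the FC-A effect with IFNa among the lists, 0.29 over 21 genes, with a median interaction of 0.19 and 17 positive. None was called in either FC-A effect, beside 0.331% of all genes with IFNa and 0.3% without. Their level per library, as the median log2 distance from the DMSO mean, was 0.56, 0.60 and 0.85 in Combination and 0.31, 0.29 and 0.56 in IFNa, which touch at 0.56, and 0.03, 0.03 and 0.16 in FC-A and 0.08, -0.04 and -0.04 in DMSO. HK2, the first enzyme of glycolysis, had an interaction of 0.33, while EGLN3, a prolyl hydroxylase that marks HIF for degradation, had one of -0.57. Leaving out replicate 3 of every group, 8 rose with FC-A and IFNa and 1 fell, against 0 and 1 without IFNa. Over all 15990 genes that setting gave 619 higher and 568 lower with IFNa, and 60 and 74 without.

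YAP and TEAD targets, which follow cell contact and tension, had a median FC-A effect of -0.20 with IFNa (1 of 23 positive) and -0.07 without (5 positive). In each setting 1 was called lower, beside 0.194% of all genes with IFNa and 0.144% without. Their interaction was negative for 18, with a median of -0.07. Genes of MYC and ribosome biogenesis had a median FC-A effect of -0.13 with IFNa (0 of 27 positive) and -0.10 without (3 positive). None was called with IFNa, where 0.331% of all genes were, and 1 (MYC) was called lower without, where 0.144% were. Their median interaction was -0.02. Without replicate 3 of any group, 9 of the 23 YAP and TEAD targets and 12 of the 27 MYC and ribosome genes were called lower with IFNa, and 1 of each list without, beside the 568 and 74 over all genes. In both lists replicate 3 was the lowest library of FC-A and of DMSO.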
